A study of Chlorocebus sabaeus with 6 samples.

Results

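Chromosome 26 of the African green monkey was followed here in COS-1 cells, an established line derived from monkey kidney fibroblasts and transformed with simian virus 40 sequences. Its members were the features placed on chromosome 26 in the deposited table with a mean of at least 1 FPKM (fragments per kilobase of feature, scaled to the fragments mapped in the library) over the 6 libraries. There were 690 such features among 28434 that reached the same mean genome-wide and 51520 in the whole table. The chromosome was picked because its features were mostly lower in earlier results from these same libraries, so its overall shift is described below and is not tested. Of the 1256 features on the chromosome, the other 566 had a mean under 1 FPKM. Among these 566, 331 had a mean under 0.0001 FPKM, 5 stood at 0 in all 6 libraries, and 453 carried accessions beginning with JK.

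The control group was 3 libraries of COS-1 cells with no treatment, and the second group was 3 libraries of lentivirus-treated COS-1 cells. All 6 had 14 h without serum and then 90 min with EGF, epidermal growth factor, at 2 ng/ml, so no unstimulated library enters the comparison. What the lentivirus carried is not in the labels, and the control cells received none, so the carried sequence and the infection cannot be told apart. Nothing in the labels says whether replicates were separate cultures, so each p-value reflects the spread among these 6 libraries alone, and that spread may be technical. In bulk RNA, fewer cells of a kind and less RNA per cell cannot be told apart. The columns summed to about 2094230 to 2206930 FPKM, and how many reads lie behind each column is not known.

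The RNA level of a gene depends on its own promoter and enhancers and on properties that it shares with its neighbours, such as the number of DNA copies of the stretch and its chromatin state. DNA and chromatin were not measured in these libraries. Chromosome 26 of the RefSeq assembly mChlSab1.0.hap1 carries 500 protein-coding genes. These include MAP2K1, which encodes a kinase that phosphorylates ERK1/2 after EGF, SPRED1, an inhibitor of the RAS to ERK pathway, and SMAD3, a transducer of TGF-beta signals. Other genes there are THBS1 and FBN1 of the extracellular matrix, ALDH1A2, which makes retinoic acid, BUB1B of the mitotic checkpoint, and B2M of antigen presentation. The deposited table gives accessions only, 0 of its 51520 identifiers matched that RefSeq table, and its genome build is not given in the sources used here. No feature was therefore given a gene name, and the fibroblast identity of the cells could not be checked on marker genes. Of the 690 features, 355 had accessions beginning with ENSP and 335 with JK. Features are called below by their start and end in the deposited table.

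The features of chromosome 26 were lower in the lentivirus-treated libraries by a small amount that most of them shared. The median change, lentivirus minus control on the log2(FPKM + 1) scale, was -0.18, which is 11.9% lower in FPKM + 1. It was -0.00097 over all 28434 features. The change was negative for 518 of the 690 features (75.1%), against 50.1% of all features. The quartiles of the changes were -0.35 and -0.0026 on chromosome 26, and -0.17 and 0.16 genome-wide. The spread between the quartiles was similar, 0.35 against 0.33 log2. Changes of at least 1 log2 were few, with 11 features lower and 10 higher.

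In each library the level of the chromosome was summarised as the median over its features of log2(FPKM + 1) minus the feature's own mean over the 6 libraries. This median was 0.095, 0.092 and 0.10 in control replicates 1, 2 and 3. It was -0.077, -0.086 and -0.095 in lentivirus replicates 1, 2 and 3. The 3 control libraries lay together above 0, the 3 lentivirus-treated libraries lay together below it, and the groups were far from overlapping. Their means were 0.096 ± 0.0041 and -0.086 ± 0.0093 (SD, n = 3 per group). Summed over all 1256 features, the chromosome held 2.23%, 2.19% and 2.21% of the FPKM of the control libraries. It held 2.01%, 2.02% and 2.02% of the FPKM of the lentivirus-treated libraries.

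Among the 30 chromosomes with at least 50 features of this level, chromosome 26 had the lowest median, and chromosome 15 was next with -0.16 over 619 features. With only features that overlap no other, these traded places, with -0.15 for chromosome 26 and -0.17 for chromosome 15. On chromosome 15 the library medians averaged 0.085 ± 0.0031 in the control group and -0.080 ± 0.0055 in the other (SD, n = 3 per group). Chromosome 20 stood at the other end with a median change of 0.11 over 2116 features. These chromosomes were measured in the same 6 libraries, and the difference between chromosomes 26 and 15 was not tested. Groups that do not overlap were not particular to chromosomes with a large shift. On chromosome 22, with a median change of -0.026, library medians ran from 0.018 to 0.024 in control and from -0.016 to -0.012 in lentivirus-treated libraries. On chromosome 6, with a median change of -0.053, the groups did overlap.

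**Figure D1:**
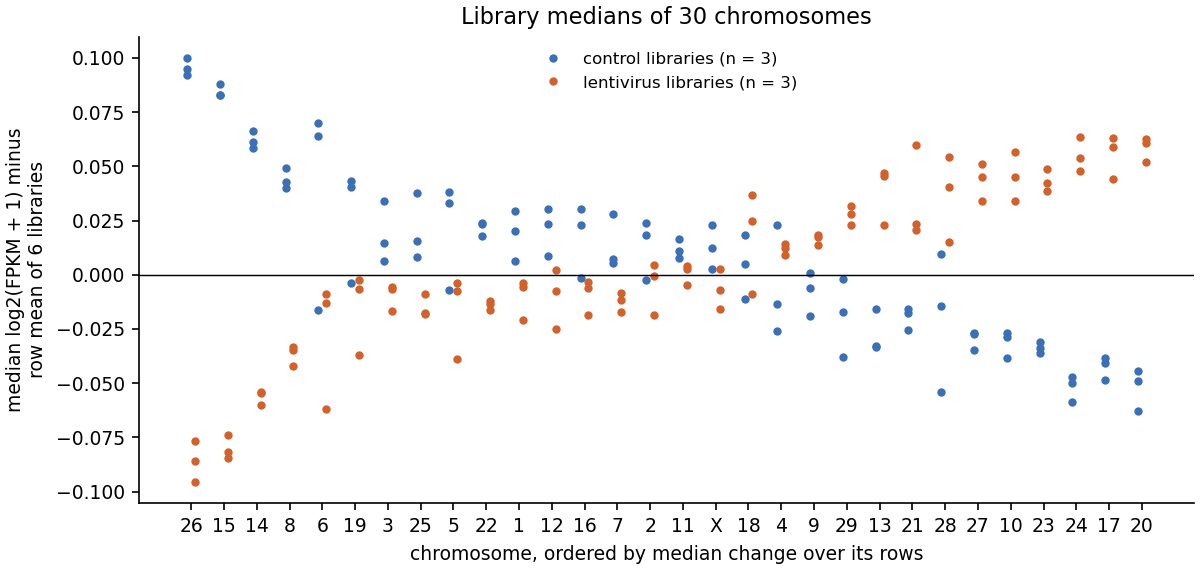
Median over a chromosome's features of log2(FPKM + 1) minus each feature's mean over the 6 libraries (vertical axis, log2), for 30 chromosomes ordered by their median change (horizontal axis); each point is 1 library, and rows in the axis labels of all plots are features. Chromosome 26, at the left end, has control libraries at 0.092 to 0.10 and lentivirus-treated libraries at -0.095 to -0.077.

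Single features were tested in 1 fit over all 28434 features, by limma on log2(FPKM + 1) with Benjamini-Hochberg adjustment and a threshold of 0.05. On chromosome 26, 115 of 690 features passed, of which 108 fell and 7 rose. Genome-wide 6.48% of features passed, of which 3.59% fell and 2.89% rose as shares of all tested. The chromosome was chosen on this contrast, so nothing is read from its count. The 3 lentivirus-treated libraries all lay below the 3 control libraries in 269 features and all above them in 36, where the shares genome-wide were 16.5% and 15.1%. For a single feature, 0.10 is the smallest p that an exact permutation test can reach with 3 libraries a group. Without control replicates 1, 2 and 3 the calls on the chromosome numbered 6, 6 and 3 in place of 115. Without lentivirus replicates 1, 2 and 3 they numbered 1, 4 and 6. The median change was -0.18 in each of these 6 fits. The 575 features with no call had a median change of -0.13, and 410 of them were negative.

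The shift was not the same along the chromosome. The features lay between positions 1135124 and 57090812 and were placed by their midpoints in 12 bins of 5 Mb, of which the last holds 7 features. The median change was negative in 12 of 12 bins, in 26 of 29 bins of 2 Mb, and in 31 of 35 bins of 20 consecutive features. It was near 0 in the first 15 Mb, with -0.025, -0.054 and -0.039 in bins 1, 2 and 3. In bin 4, from 15 to 20 Mb, it was -0.14. From 20 to 50 Mb it was -0.26, -0.27, -0.33, -0.27, -0.26 and -0.21 in bins 5 to 10. Beyond 50 Mb it was -0.12 in bin 11 and -0.25 over the 7 features of bin 12.

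**Figure D2:**
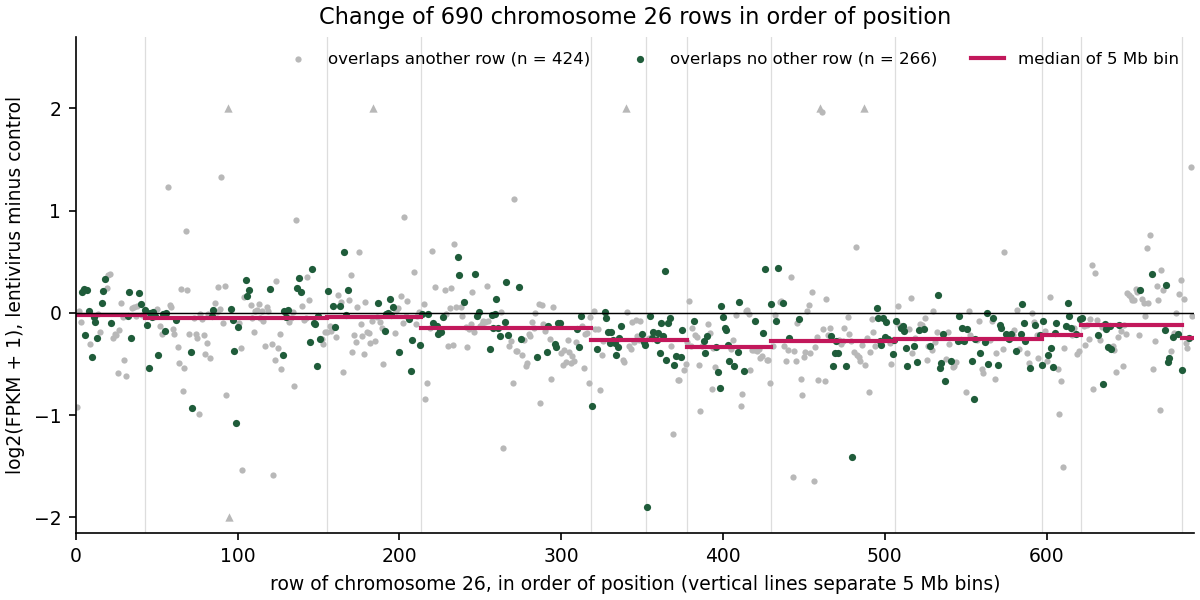
Change of each of the 690 features (vertical axis, log2(FPKM + 1), lentivirus minus control) in order of position along chromosome 26 (horizontal axis); horizontal bars are medians of 5 Mb bins, and triangles at the limits stand for 6 features whose change is beyond 2.0 log2. The cloud sits near 0 in the first 3 bins and below it in bins 5 to 10, where bar heights run from -0.33 to -0.21.

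Read library by library, the groups did not overlap in 11 of the 12 bins. Groups also did not overlap on chromosome 22, whose shift was small, so the lack of overlap alone is not particular to chromosome 26. In bin 1 the control libraries had medians of -0.025 to 0.040 and the lentivirus-treated ones of -0.078 to 0.014, and the groups overlapped. In bin 3 the ranges were 0.014 to 0.027 and -0.039 to 5.7e-04. In bin 7, the lowest, they were 0.160 to 0.164 and -0.173 to -0.153. In bin 9, with 91 features, they were 0.13 to 0.15 and -0.15 to -0.12. The gap between groups was therefore wide beside the spread within a group in bins 7 and 9, and within that spread in bin 1.

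**Figure D3:**
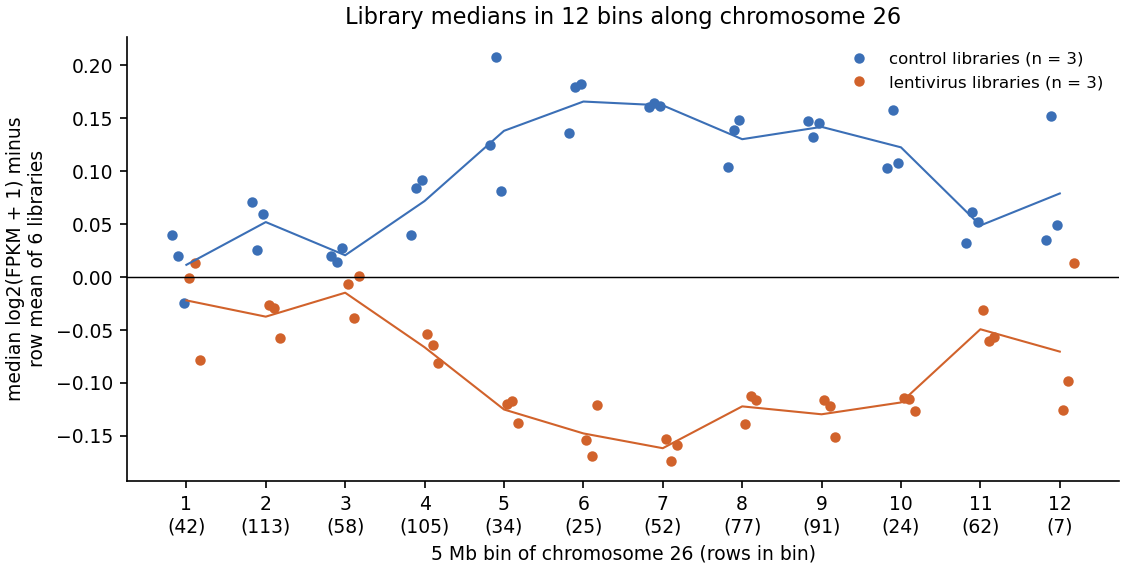
Median over the features of a 5 Mb bin of log2(FPKM + 1) minus each feature's mean over the 6 libraries (vertical axis, log2), for the 12 bins of chromosome 26 (horizontal axis, number of features in brackets); points are libraries and lines join group means. The groups overlap in bin 1 and are farthest apart in bins 6 and 7.

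With the bins in view, 3 stretches were set: before 20 Mb, 20 to 50 Mb, and beyond 50 Mb. Their limits were chosen after the values were seen. Before 20 Mb the median change of 318 features was -0.089. There 20 fell (6.29%) and 3 rose (0.94%), beside 3.59% and 2.89% of all features. From 20 to 50 Mb the median of 303 features was -0.27, which is 16.9% lower in FPKM + 1, and 265 of them were negative. In this middle stretch 81 features fell (26.7%) and 2 rose (0.66%). The groups did not overlap in 171 of its features, 164 lower and 7 higher, where the whole table has 16.5% and 15.1% of its features. Beyond 50 Mb the median of 69 features was -0.12, and 7 fell (10.1%) and 2 rose (2.90%). Of the 108 features that fell, 81 lay in the middle stretch, which holds 303 of the 690 features.

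With all features taken, the middle stretch was also the one in which libraries of a group agreed most closely. Its library medians were 0.14, 0.15 and 0.14 in control replicates 1, 2 and 3, and -0.14, -0.13 and -0.13 in lentivirus replicates 1, 2 and 3. Before 20 Mb they were 0.042, 0.038 and 0.058 in control and -0.033, -0.035 and -0.057 in lentivirus-treated libraries. In both stretches the groups did not overlap. The group means were 0.143 and -0.132 in the middle, and 0.046 and -0.042 before it. The median SD of a feature within a group was 0.10 log2 in the middle stretch and 0.135 before it. Features that overlap no other gave a mixed picture. Their control medians had an SD of 0.020 in the middle and 0.0096 before it, and the lentivirus medians 0.0050 and 0.016. Their median SD within a group was 0.092 and 0.096 log2.

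Overlapping features share reads, so their values are not separate measurements. A pair on chromosome 26 shows this: it was chosen as the members with at least 95% reciprocal overlap whose changes differ most. The feature from 8088335 to 8091301 had 0.0998, 0.821 and 0.0148 FPKM in control replicates 1 to 3 and 11.9, 13.5 and 0.0679 in lentivirus replicates 1 to 3. The feature from 8088384 to 8091301 had 9.83, 9.57 and 9.15 FPKM in control and 0.0716, 0.0619 and 9.63 in lentivirus-treated libraries. In each library a single feature of the pair carried most of the signal, and not always the same one. Their sum was 9.93, 10.4 and 9.16 FPKM in control and 11.9, 13.5 and 9.69 in lentivirus-treated libraries, so changes of 2.20 and -2.20 log2 became 0.22 for the sum. Neither feature passed the test (limma adjusted p = 0.287 and 0.236).

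The 266 features that overlap no other feature of the table, called lone here, do not share reads in this way. Their median change was -0.15 and 210 of 266 were negative (78.9%), against -0.0067 and 51.3% over the 9949 lone features of the table. The 424 overlapping features had a median of -0.19, and 308 were negative. Library medians of the lone features were 0.085, 0.096 and 0.079 in control replicates 1 to 3 and -0.084, -0.066 and -0.090 in lentivirus replicates 1 to 3, and the groups did not overlap. Of the 266, 51 fell and 5 rose, beside 4.95% and 3.82% of lone features genome-wide, 8.76% in either direction. The lentivirus-treated libraries lay wholly below control in 115 lone features and wholly above in 17, beside 21.2% and 18.6% genome-wide. When overlapping features were summed, the chromosome had 422 loci with a median change of -0.18, of which 143 fell and 12 rose, beside 10.6% and 8.88% of all loci.

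Lone features were likewise lowest from 20 to 50 Mb, and differed from all features at both ends of the chromosome. Before 20 Mb the median of 112 lone features was -0.032, and 72 were negative. From 20 to 50 Mb the median of 135 was -0.24, and 122 were negative (90.4%). Beyond 50 Mb it was -0.21 over 19, of which 16 were negative, beside -0.12 for all 69 features there. In the middle stretch 40 lone features fell (29.6%) and 2 rose (1.48%), beside 4.95% and 3.82% of lone features genome-wide. Before 20 Mb 7 fell (6.25%) and 3 rose (2.68%), shares nearer to those genome-wide. Beyond 50 Mb 4 of 19 fell (21.1%) and 0 rose. Only bin 1 had a positive median of lone features, 0.056 over 18, with 8 negative. In bins 5 to 10 the lone medians were -0.27, -0.22, -0.25, -0.25, -0.26 and -0.14, and bin 4 had -0.10. Bin 11 had -0.17 over 17 lone features and bin 12 -0.40 over 2, so lower lone medians did not end at 50 Mb.

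The longest runs of neighbouring lone features on the same side of 0 lay in the middle stretch. Long runs come with its 90.4% of negative lone features. Their length was not tested, and runs were not counted on other chromosomes. The longest held 22 consecutive lone features, all negative, from 20691781 to 27652794, with a median change of -0.25, and 6 of them fell. The next held 20, from 39509433 to 41085893, with a median of -0.25, and then came 16, from 41430730 to 42301979, with -0.28. A run of 14, from 27887355 to 31651938, had a median of -0.36. Runs of 13 negative lone features were not confined to the middle stretch. They included that from 13404760 to 16308989, with a median of -0.16, and that from 18556790 to 20276869, with -0.30. No run of positive lone features on the chromosome was longer than 4.

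As plain ratios of mean FPKM, with no pseudocount, the shift of lone features was modest. Lone features of the middle stretch with at least 1 FPKM in every library numbered 129. Their median ratio of lentivirus-treated to control was 0.825, and the quartiles were 0.746 and 0.913. In 83 of them the ratio was between 0.75 and 1, in 30 between 0.5 and 0.75, in 3 under 0.5, and in 13 above 1. The median ratio of 9013 such features genome-wide was 0.995, with quartiles of 0.885 and 1.11.

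Over all features of the chromosome, the median change was negative at every level of expression. On the log2(FPKM + 1) scale the median change was -0.11 for 181 features with a mean of 1 to under 5 FPKM. It was -0.21 for 247 features of 5 to under 20 FPKM and -0.21 for 193 of 20 to under 100. For the 69 features of 100 FPKM and over it was -0.15. The same classes genome-wide had medians of -0.0052, 0.0067, -1.5e-04 and -0.010. The lowest class is the one that the added pseudocount shrinks most: with a pseudocount of 0.1 the 4 medians became -0.17, -0.23, -0.21 and -0.15. The order of the classes therefore depends on the scale, and the sign of none of them did. With a pseudocount of 1 the lone features had medians of -0.10, -0.21, -0.15 and -0.12 in the same classes. Only 15 of the 69 features of 100 FPKM and over are lone, and there the groups overlapped. Their library medians ran from -0.0070 to 0.12 in control and from -0.040 to -0.0041 in lentivirus-treated libraries.

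Genome-wide, falls grew more frequent with level, with 1.71%, 3.45%, 4.74% and 5.91% of features in the 4 classes from low to high. On chromosome 26 the shares that fell were 1.66%, 18.2%, 24.4% and 18.8%, so the highest class stood below the one before it. Rises were 0.82%, 2.62%, 4.82% and 4.01% of features in these classes genome-wide, and 1.10%, 0.40%, 1.04% and 2.90% on chromosome 26. In its lowest class 3 of 181 features fell, a share near the 1.71% genome-wide, and 2 rose. The median SD of a feature within a group was 0.20 log2 in that class. From 5 to under 20 FPKM 45 fell and 1 rose, with a median SD of 0.11. From 20 to under 100 FPKM 47 fell and 2 rose, with a median SD of 0.082. At 100 FPKM and over 13 fell and 2 rose.

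Level and position were read together. In the middle stretch the medians of the 4 classes, from low to high, were -0.15, -0.27, -0.34 and -0.34 over 79, 127, 72 and 25 features. Of the 72 features of 20 to under 100 FPKM in this stretch, 69 were negative, 35 fell and 0 rose. Genome-wide 4.74% of features of that class fell and 4.82% rose. Before 20 Mb the same classes had medians of -0.089, -0.087, -0.072 and -0.11. The middle stretch was thus lower than the one before it in each class. Beyond 50 Mb the class of 20 to under 100 FPKM was an exception, with a median of 0.11 over 20 features of which 8 were negative. Only 4 of those 20 are lone, and the median of these 4 was -0.28. A crowded locus of the last stretch, from 53000433 to 53180009, holds 18 features, 12 of them members. Its summed value ran from 226 to 234 FPKM in control and from 247 to 259 in lentivirus-treated libraries, and it rose by 0.15 log2 (limma adjusted p = 0.0348 over all loci).

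**Figure D4:**
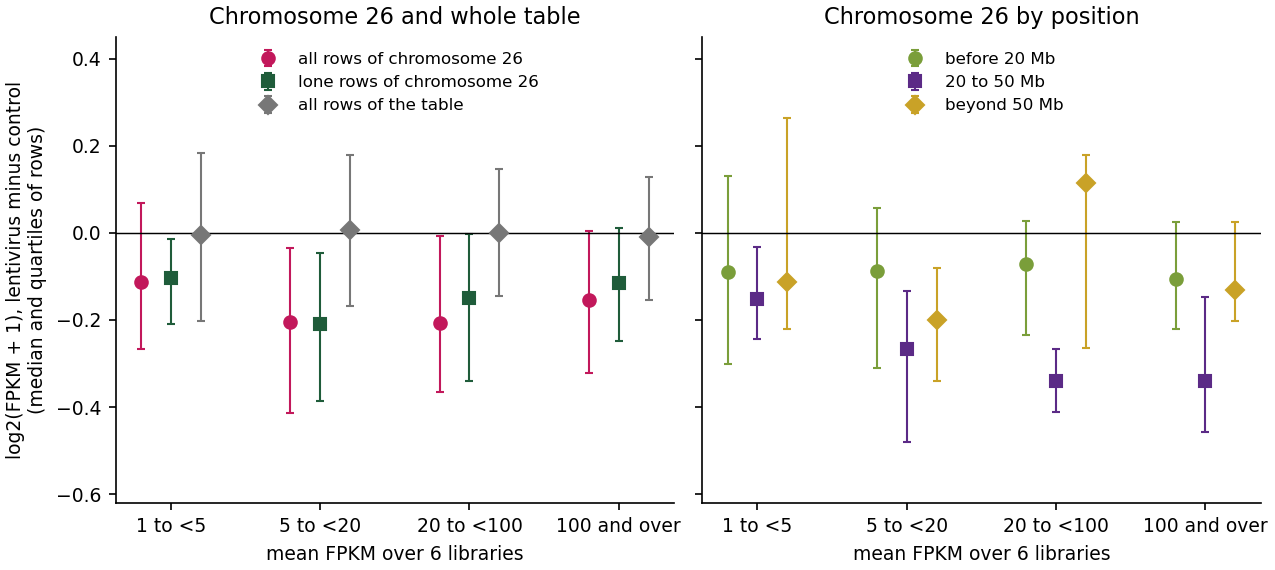
Median change (symbols) and quartiles (bars) of features in 4 classes of mean FPKM (horizontal axis), on the log2(FPKM + 1) scale, lentivirus minus control (vertical axis); the left panel sets chromosome 26 beside the whole table and the right panel splits chromosome 26 by position. The 20 to 50 Mb stretch is lowest in each class, at -0.15 to -0.34, and the last stretch has only 3 features of 100 FPKM and over.

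With all features taken, the median change was the same for both kinds of accession. Features with ENSP accessions had a median change of -0.18, and 78 of 355 fell, beside 5.38% of such features genome-wide. Those with JK accessions had a median of -0.18 too, and 30 of 335 fell, beside 1.97% genome-wide. The median SD within a group was 0.083 log2 for the first and 0.20 for the second. Among lone features the medians were -0.16 for 203 with ENSP and -0.13 for 63 with JK accessions, beside -0.015 and 0.028 genome-wide. By genomic length, the median was -0.13 for 60 features under 300 bp, -0.13 for 205 of 300 bp to under 3 kb, -0.21 for 246 of 3 to under 30 kb, and -0.20 for 179 of 30 kb and longer. The same classes genome-wide had 0.034, 0.012, -0.011 and -0.010, so part of that difference between lengths was present in the whole table. The median SD within a group was 0.42 log2 under 300 bp and 0.075 at 30 kb and longer.

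Lone features were named by size of change among those that passed the test, had at least 1 FPKM in every library and at least 5 FPKM in the higher group, and whose groups did not overlap. There were 51 falls and 4 rises, and the 10 largest falls and the 4 rises are described. The largest fall was that of ENSP00000249750, from 25439512 to 25555384. It had 45.1, 46.9 and 48.5 FPKM in control replicates 1 to 3 and 11.8, 12.2 and 11.5 in lentivirus replicates 1 to 3. The control values all stood far above the others, with little spread in either group. The means were 46.8 ± 1.69 and 11.8 ± 0.370 FPKM (SD, n = 3), a 3.95-fold fall and a log2 change of -1.90 with SE 0.050 (limma adjusted p = 0.00182). It lies within the run of 22 negative lone features, and its change was far larger than the run's median of -0.25. In bin 6, where it lies, 2 of 25 features, this one included, were lower by at least 1 log2. Leaving out each library in turn kept its call and gave log2 changes between -1.92 and -1.87.

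The second was ENSP00000320346, from 39269537 to 39273318, with 14.4, 15.6 and 17.3 FPKM in control and 5.50, 4.71 and 5.68 in lentivirus-treated libraries. The lowest control value was far above the highest lentivirus value. It fell 2.97-fold, by 1.41 on the log2 scale with SE 0.098 (limma adjusted p = 0.00835), and of the 6 libraries only lentivirus replicate 1, when left out, ended its call (limma adjusted p = 0.0570). Just beyond it, the crowded locus from 39274896 to 39466296, with 22 features, had summed values of 1216, 1271 and 1236 FPKM in control and 963, 950 and 981 in lentivirus-treated libraries. That locus fell by 0.36 log2 (limma adjusted p = 0.00282 over all loci), a smaller change in the same direction at a far higher level.

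The third lay in the first part of the chromosome, where the median feature hardly differed. The feature from 8517947 to 8518544 had 76.7, 65.0 and 75.2 FPKM in control and 39.2, 34.1 and 28.8 in lentivirus-treated libraries, a 2.12-fold fall (log2 change -1.07, SE 0.13, limma adjusted p = 0.0192). The named lone features close to it did not share a change of this size. They were named for level or for their own change, and other features nearby are not described. The feature from 8533544 to 8548249, the most abundant lone feature of the chromosome, had 738, 724 and 769 FPKM in control and 697, 678 and 658 in lentivirus-treated libraries. Its groups did not overlap, but the log2 change of -0.13 did not pass the test (limma adjusted p = 0.127). The feature from 8565175 to 8569805 ran from 25.9 to 27.0 FPKM in control and from 31.7 to 34.6 in lentivirus-treated libraries and rose 1.26-fold (log2 change 0.32, SE 0.050, limma adjusted p = 0.0306). Of these 3 named features 1 fell, 1 rose and 1 did not pass, a mix that depends on the naming rule.

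The other 7 of the 10 falls were of 1.53-fold to 2.16-fold, with limma adjusted p from 0.0142 to 0.0495. The feature from 7278921 to 7334060 had 5.90, 8.01 and 8.20 FPKM in control and 2.65, 3.47 and 4.10 in lentivirus-treated libraries. The feature from 20163055 to 20220136 had 8.73, 7.73 and 8.84 FPKM in control and 4.27, 4.20 and 3.60 in lentivirus-treated libraries. In both, the lowest control value stood above the highest lentivirus value. A pair of close features from the middle stretch fell together. The feature from 31568026 to 31609133 had 6.51, 7.17 and 6.23 FPKM in control and 4.08, 3.86 and 4.46 in lentivirus-treated libraries. The feature from 31637700 to 31651938 had 7.26, 9.42 and 8.91 FPKM in control and 4.86, 4.82 and 4.39 in lentivirus-treated libraries. Their falls were 1.61-fold and 1.82-fold, and they lie at the end of the run of 14 negative lone features.

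The remaining 3 falls also lay between 20 and 50 Mb. The feature from 33652608 to 33673477 had 17.2, 18.0 and 17.4 FPKM in control and 11.3, 11.0 and 12.2 in lentivirus-treated libraries. The feature from 41502809 to 41512033 had 9.64, 8.89 and 9.63 FPKM in control and 5.69, 5.93 and 5.00 in lentivirus-treated libraries. The feature from 42137427 to 42149594 had 9.15, 7.08 and 9.11 FPKM in control and 3.96, 5.42 and 3.56 in lentivirus-treated libraries. In all 3 the groups stood apart, and the last had the widest spread.

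Each of the 4 rises of lone features named by the rule was smaller than each of the 10 falls above. JK101116.1, a feature of 97 bp from 16700249 to 16700345, had 115, 123 and 112 FPKM in control and 167, 166 and 181 in lentivirus-treated libraries. It rose 1.47-fold (log2 change 0.55, SE 0.057, limma adjusted p = 0.0147). ENSP00000325527, from 34639018 to 34876498, had 4.48, 4.31 and 3.96 FPKM in control and 5.67, 6.13 and 6.37 in lentivirus-treated libraries, a 1.42-fold rise (limma adjusted p = 0.0411). This second feature lies in bin 7, where 46 of 52 features were negative. The feature from 10176217 to 10427519 had 27.3, 26.8 and 27.4 FPKM in control and 32.3, 31.8 and 30.8 in lentivirus-treated libraries, a 1.16-fold rise (limma adjusted p = 0.0465). Another lone feature that rose, from 35514020 to 35526076, stayed under the 5 FPKM asked for and is named after its values were seen: it had 1.92, 1.94 and 1.96 FPKM in control and 2.85, 3.04 and 3.06 in lentivirus-treated libraries. The remaining 2 of the 7 rises, also named after their values were seen, overlap other features and share reads with them. That from 54556408 to 54556665 had 1898, 1888 and 1816 FPKM in control and 2142, 2100 and 2110 in lentivirus-treated libraries, and that from 57087564 to 57087884 had 1.39, 2.23 and 1.00 FPKM in control and 3.93, 7.40 and 6.24 in lentivirus-treated libraries.

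**Figure D5:**
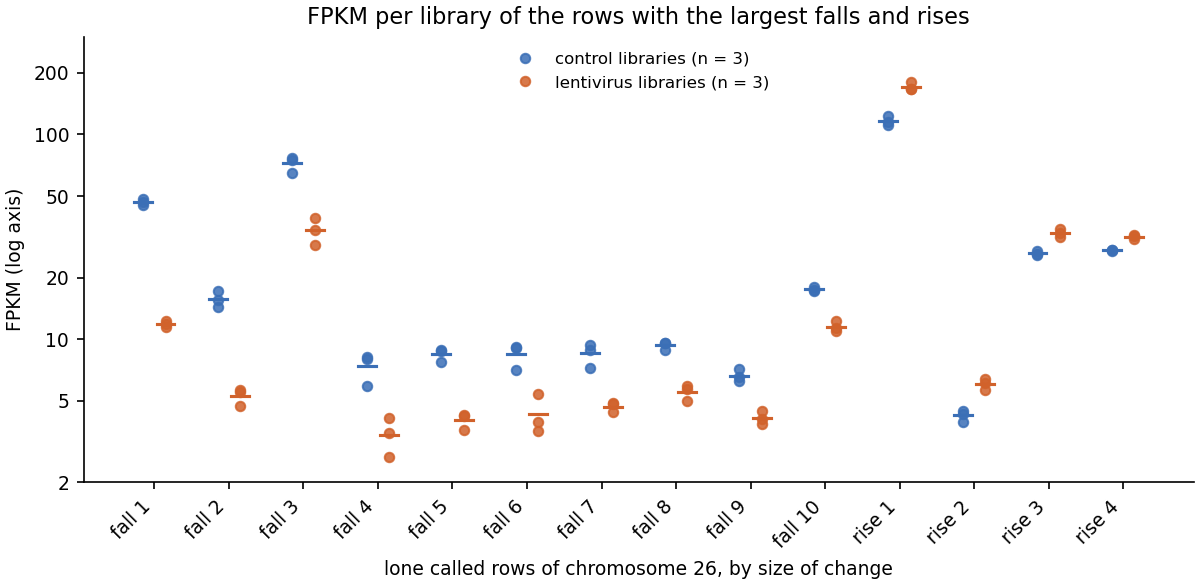
FPKM in each library (vertical axis, log scale) of the 10 lone features with the largest falls and the 4 that rose (horizontal axis, in order of size of change); points are libraries and short bars are group means (n = 3 per group). The groups stand apart in all 14, and the first fall goes from 46.8 to 11.8 FPKM.

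The lone feature of median change in each bin shows what a typical feature did. In bin 1 it was the feature from 2402774 to 2412643, with 77.3, 80.5 and 77.8 FPKM in control and 78.4, 79.8 and 80.9 in lentivirus-treated libraries, and the groups overlapped. In bin 5 it was the feature from 24769253 to 24919006, with 29.9, 29.8 and 29.3 FPKM in control and 24.3, 24.2 and 24.0 in lentivirus-treated libraries. The spread in both groups of this feature was tiny beside the gap, and it fell 1.23-fold (limma adjusted p = 0.0219). In bin 7 it was the feature from 30866216 to 31078735, with 11.9, 11.6 and 10.5 FPKM in control and 9.50, 8.86 and 9.28 in lentivirus-treated libraries. Its ratio was nearly the same, 1.23-fold lower, but its wider spread left it short of the threshold (limma adjusted p = 0.0765). In bin 9 it was the feature from 42187059 to 42193708, with 14.1, 14.3 and 14.7 FPKM in control and 13.0, 11.5 and 11.1 in lentivirus-treated libraries (limma adjusted p = 0.0993).

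Features of the other bins were picked the same way, so their changes lie at or next to their bin's lone median by construction. The typical lone features of bins 2, 3 and 4, starting at 9737949, 11683233 and 19400361, had changes of -0.033, -0.013 and -0.10, and the groups overlapped in each. Those of bins 6 and 8, starting at 27565300 and 37692607, had changes of -0.22 and -0.25 with groups that did not overlap, and neither passed the test. Those of bins 10 and 11, starting at 48674136 and 53258644, had changes of -0.15 and -0.17 with overlapping groups. The feature from 55320485 to 55538852, taken from the 2 lone features of bin 12, had 22.3, 20.5 and 24.8 FPKM in control and 15.8, 15.6 and 13.4 in lentivirus-treated libraries and fell 1.51-fold (limma adjusted p = 0.0381).

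The 5 most abundant lone features did not all follow the chromosome. The feature from 42962524 to 42965219 had 461, 453 and 454 FPKM in control and 371, 385 and 372 in lentivirus-treated libraries, and it fell 1.21-fold (log2 change -0.28, SE 0.034, limma adjusted p = 0.0192). The feature from 4501533 to 4526293, in bin 1, had 367, 378 and 373 FPKM in control and 368, 362 and 365 in lentivirus-treated libraries, and the groups overlapped. The features from 36842118 to 36842190 and from 10726068 to 10726196 are 73 bp and 129 bp long, and their libraries ranged from 309 to 584 and from 291 to 405 FPKM with overlapping groups. With the feature at 8533544 described above, 1 of the 5 passed the test.

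Of the 17 features named here that passed the test over all features, 15 lost their call whichever library was left out (limma adjusted p = 0.0520 to 0.151), and none changed direction. The 3 rises named after their values were seen and the loci were not among these 17. At the threshold of 1 FPKM, the 2 members just inside had means of 1.01 and 1.03 FPKM, with changes of -0.12 and -0.17. The 2 features just outside had means of 0.985 and 0.985 FPKM, with changes of 0.051 and -0.20.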

How the data were processed

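Messenger RNA of 6 COS-1 libraries was measured, 3 control and 3 lentivirus-treated. The authors deposited 1 table of FPKM values per feature and library. Cufflinks 2.1.1, Cuffdiff, Bowtie2 2.1.0.0, TopHat2 2.0.10 and CASAVA are named in the submitters' processing notes. Not given in the sources used here are their order, any scaling between libraries, the annotation and the genome build. The depth is unknown, so no counting interval is given: only 2 of 14128 lone features lay between 0 and 0.3 FPKM in every library, which did not allow the worth of a single read to be worked out.

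Features whose mean reached 1 FPKM were tested on log2(FPKM + 1), which understates the change of low features, with limma 3.58.1 (lmFit, eBayes with trend) in R 4.3.3. All 6 libraries entered 1 fit with group as the only term, and two-sided p-values were adjusted by Benjamini-Hochberg over all features tested. The fit was tested on simulated data. Overlap means at least 1 shared position with any other feature of the table, strand ignored, and the 1 FPKM filter stayed on the deposited values in all scaling and left-out alternatives. The members, bins, classes and the rule for named features (the largest called changes of lone features, the 5 most abundant lone features, and the median lone feature of each bin) were chosen with earlier results of these data known. Gene lists by role and cell type markers needed symbols and were not analysed here. Alternatives were other pseudocounts, filters, scalings, bins and loci, a replicate block, and leaving out each library.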

Additional observations from a re-analysis of the deposited data

How the results depend on the processing

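Scaling moved the median of all features from -0.00097 to at most 0.016 log2, and the stretches, classes, bins and the 17 named features with a call kept their direction when values were rescaled by median ratio, by quantiles or to TPM. The typical lone feature of bin 3, with no call, went from -0.013 to 6.3e-04 log2 on the TPM scale. The 115 calls on chromosome 26 (108 lower, 7 higher) became 71 (67 and 4) with no filter and 1 to 6 without 1 library, of which 1 to 6 were lower and 0 higher. Genome-wide the 1842 calls became 1197 with no filter and 48 to 118 without 1 library. The 7 rises were 12 among summed loci. With the replicate number as a block there were 0 calls (0 lower, 0 higher) by limma, on the chromosome and genome-wide. In that fit the unadjusted limma p was under 0.05 for 248 of 690 features, where the unblocked fit had 260. Over all 28434 features these numbers were 6084 and 6890. All 17 named calls were lost in the blocked fit. Libraries that share a number did not deviate together in every pair, and not every library correlated best with its own number. For numbers 1, 2 and 3, r was 0.13, -0.028 and 0.0028 across all features, and 0.28, -0.12 and 0.033 across chromosome 26 features. In both sets the r of number 1 was the highest of any control and lentivirus library. The numbers were not taken as pairs. The median change of -0.18 was -0.20 and -0.11 at pseudocounts of 0.1 and 5, -0.14 on the TPM scale, -0.20 at a filter of 5 FPKM and -3.6e-04 with no filter, which adds 566 features, 331 of them with a mean under 0.0001 FPKM. That of lone features, -0.15, was -0.19, -0.10, -0.12, -0.19 and -0.10 in the same order, -0.17 when only overlap with tested features counted, and -0.17 to -0.15 without 1 library. The highest class minus the lowest was -0.040 log2, 0.013 and -0.097 at pseudocounts of 0.1 and 5, and -0.081 to 0.026 without 1 library. On the TPM scale 2 of the 17 named calls were lost. Leaving out loci of over 20 features and using only lone features for bins were chosen after seeing the data; they gave 109 calls and 11 of 12 negative bins. The share of negative bins was 91.7% without control replicate 1 and 83.3% with no filter. The cause of these moves was not tested. Unknown depth limits what can be said of low features.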
